A study of Mus musculus with 5 samples.

Results

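The genes described here are 10 nuclear proteins of the helix-loop-helix class, most of them known for holding back differentiation: Hes1, Hes5 and Hes6, Hey1, Hey2 and Heyl, and Id1, Id2, Id3 and Id4. They were taken as every non-control probe whose gene name in the array files equals a member, which gave 10 of the 36163 gene names on the array, and 10 of its 55681 probes, with 1 probe and 1 spot for each gene. Gene expression had been measured in mouse cells on 5 single-colour arrays of 60-base oligonucleotides, 1 array per sample. Of these, 3 arrays held chemically induced neural progenitor cells (ciNPC), which the study derived from MEF by chemical cocktails at low oxygen: 2 at passage 13 (p13-1 and p13-2) and 1 at passage 5 (p5). A further array held brain-derived neural progenitor cells (NPC, the control) and another mouse embryonic fibroblasts (MEF). The labels give no strain, genotype, age or culture condition for any group, and nothing in them ties the p13 arrays to separate cultures. The p-values therefore reflect the variation among these arrays only, which could be technical.

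Hes and Hey proteins are basic helix-loop-helix repressors. When a Notch receptor is cleaved, its inner part joins the DNA-binding protein Rbpj and switches on Hes1, Hes5 and the Hey genes, whose products recruit corepressors to silence neurogenic genes. Hes6 is an unusual relative that in mouse opposes Hes1 and favours differentiation. Id proteins lack the basic DNA-binding region, so they pair with E proteins such as Tcf3, Tcf4 and Tcf12 and keep them from activating genes, and bone morphogenetic proteins (BMPs) are well-known inducers of Id1, Id2 and Id3 through Smad proteins. In the developing brain both groups keep progenitors from differentiating early.

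RefSeq promoter sequences (GRCm38.p6) were on hand for 6 of the 10 members, and the 250 bases before each start were searched on both strands. The searched letters were GTGGGAA (the core bound by Rbpj), GGCGCC (a palindrome of BMP-responsive Id regulatory DNA) and CACNAG (the N box bound by Hes proteins). GTGGGAA occurred in 5.42% of 32851 promoter windows of this length, GGCGCC in 9.59% and CACNAG in 36.7%. Hes5 held GTGGGAA at 2 places, with its first base 226 and 83 bases before the start, and GGCGCC at 4 places. Hey2 held GTGGGAA once, and Id2 and Id4 held GGCGCC once each. These 3 windows are shown because they carry the matches of the Hes member that differed most from MEF, of a Hey member and of the Id member that differed most from NPC. Each reads 5′ to 3′ on the gene's strand, and capitals mark GGCGCC and either strand of the Rbpj core.
Hes5, chr4:154960673-154960922, plus strand: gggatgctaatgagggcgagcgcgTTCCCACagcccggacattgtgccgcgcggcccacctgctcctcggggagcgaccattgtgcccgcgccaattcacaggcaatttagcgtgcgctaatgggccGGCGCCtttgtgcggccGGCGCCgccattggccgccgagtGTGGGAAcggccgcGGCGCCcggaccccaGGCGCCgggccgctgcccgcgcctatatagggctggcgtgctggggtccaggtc
Hey2, chr10:30842784-30843033, minus strand: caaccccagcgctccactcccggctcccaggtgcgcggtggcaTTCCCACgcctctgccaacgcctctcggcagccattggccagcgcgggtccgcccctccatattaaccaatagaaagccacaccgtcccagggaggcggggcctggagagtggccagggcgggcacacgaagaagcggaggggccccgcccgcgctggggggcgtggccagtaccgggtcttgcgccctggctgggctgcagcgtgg
Id4, chr13:48260866-48261115, plus strand: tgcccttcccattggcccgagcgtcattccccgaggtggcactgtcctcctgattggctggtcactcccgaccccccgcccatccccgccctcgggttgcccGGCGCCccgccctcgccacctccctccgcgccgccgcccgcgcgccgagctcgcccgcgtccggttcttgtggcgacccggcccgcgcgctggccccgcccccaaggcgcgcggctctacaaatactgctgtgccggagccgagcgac
The 2 windows of Hes6 and that of Id3 held neither GTGGGAA nor GGCGCC. The N box was found once in a Hes6 window and once in that of Id4. A match is a description of the letters and not a binding site.

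Levels below are log2 intensities relative to the 75th percentile of the array, so 0 is the level of a fairly bright probe. A level belongs to 1 probe and is compared between arrays, not between genes. A difference passed when limma gave a Benjamini-Hochberg adjusted p under 0.05 over all 35611 probes tested and it was at least 2-fold. Per the array annotation (mm9), the Hes5 probe lies at chr4:154336347-154336406, the Hes6 probe at chr1:93308264-93308323, the Id1 probe at chr2:152563083-152563142 and the Id4 probe at chr13:48358668-48358727. Of the 10 members, 7 were well above background on all 5 arrays, all 10 passed the filter on dim probes, and none was saturated. Between 47.9% and 57.6% of spots were well above background per array. MEF and NPC were on 1 slide and all 3 ciNPC arrays on another. Slide and cell type therefore cannot be told apart where ciNPC are compared with NPC or MEF; the other comparisons, of NPC with MEF and of the passages, stayed inside a slide. All 14 neural progenitor markers were above background in NPC, and all 14 fibroblast markers in MEF. Detection alone does not set the groups apart, since 8 of the progenitor markers were also above background in MEF and 8 of the fibroblast markers in NPC.

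**Figure D1:**
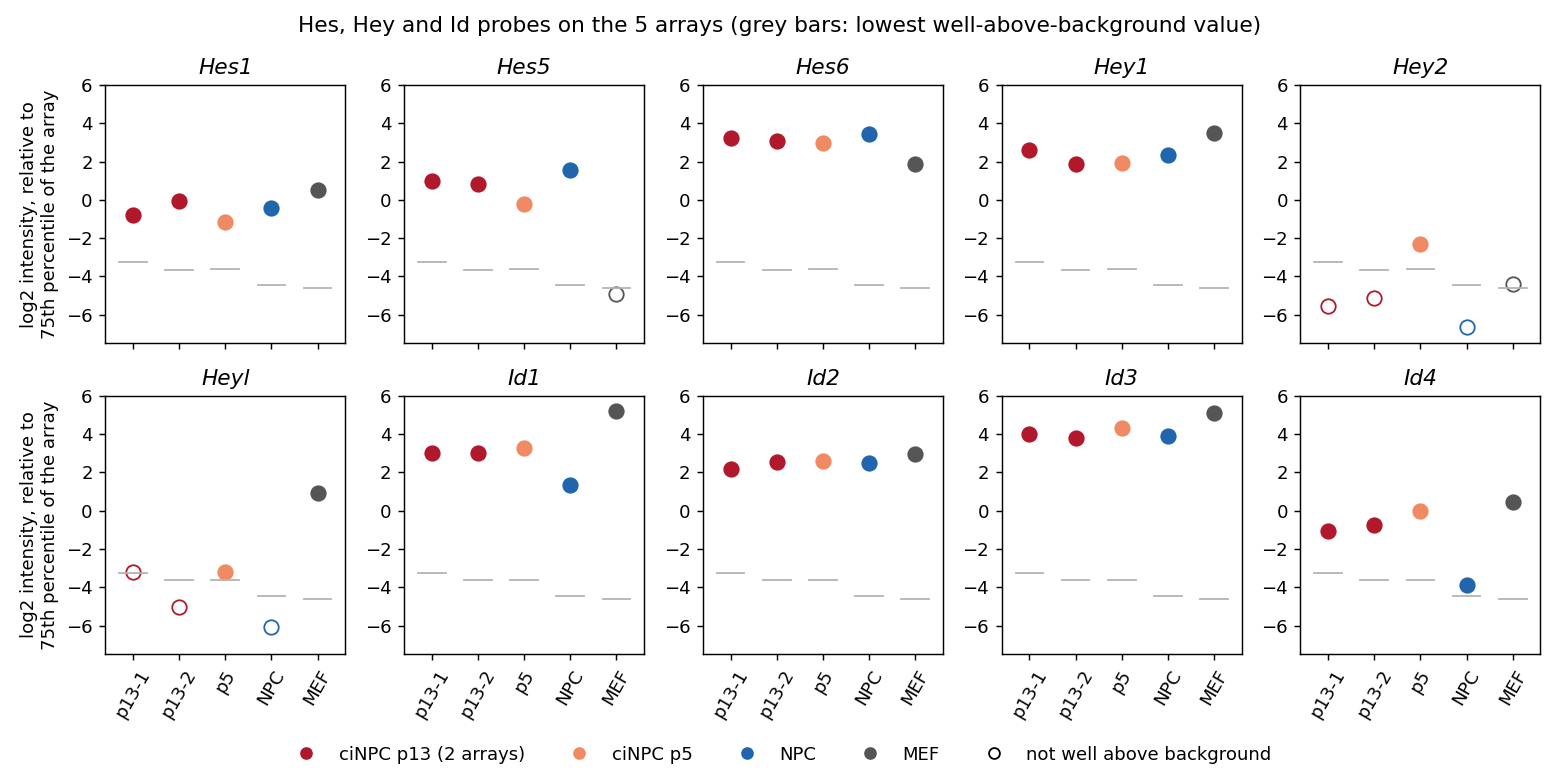
Level of each member's probe on every array, as log2 intensity relative to the 75th percentile of the array; filled points are well above background, open points are not, and grey bars give the lowest well-above-background value of the array. Hes5 is near background in MEF alone, while Id1 and Id4 have their ciNPC points between NPC and MEF.

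Against the fibroblasts they came from, ciNPC had more Hes5 and Hes6 and less Hey1, Heyl, Id1 and Id3. Hes5 was well above background on every ciNPC array and below background in MEF, at least 35.7-fold higher in ciNPC, and Id1 was 4.29-fold lower. Thus 2 of 10 members passed as higher, where 12.5% of all probes did, and 4 passed as lower, where 11.3% did. The other 4 members (Hes1, Hey2, Id2 and Id4) did not pass. The median difference of the members was -1.05 log2 units, and that of all probes was -0.10.

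Against brain-derived NPC the picture was narrower. Only Id1 and Id4 passed, both higher in ciNPC (2 of 10 members, where 2.74% of all probes passed as higher), and the other 8 members did not. None passed as lower by limma, where 0.0505% of all probes did, although 4 members had an unadjusted p under 0.05 in either direction, as did 4761 of all probes. The median over the members was 0.04, against -0.12 for all probes. By p13 against p5, 1 member passed as higher, Hes5, where 0.666% of all probes did, and none passed as lower (0.213% of all probes); 7 members and 6790 probes had an unadjusted p under 0.05.

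**Figure D2:**
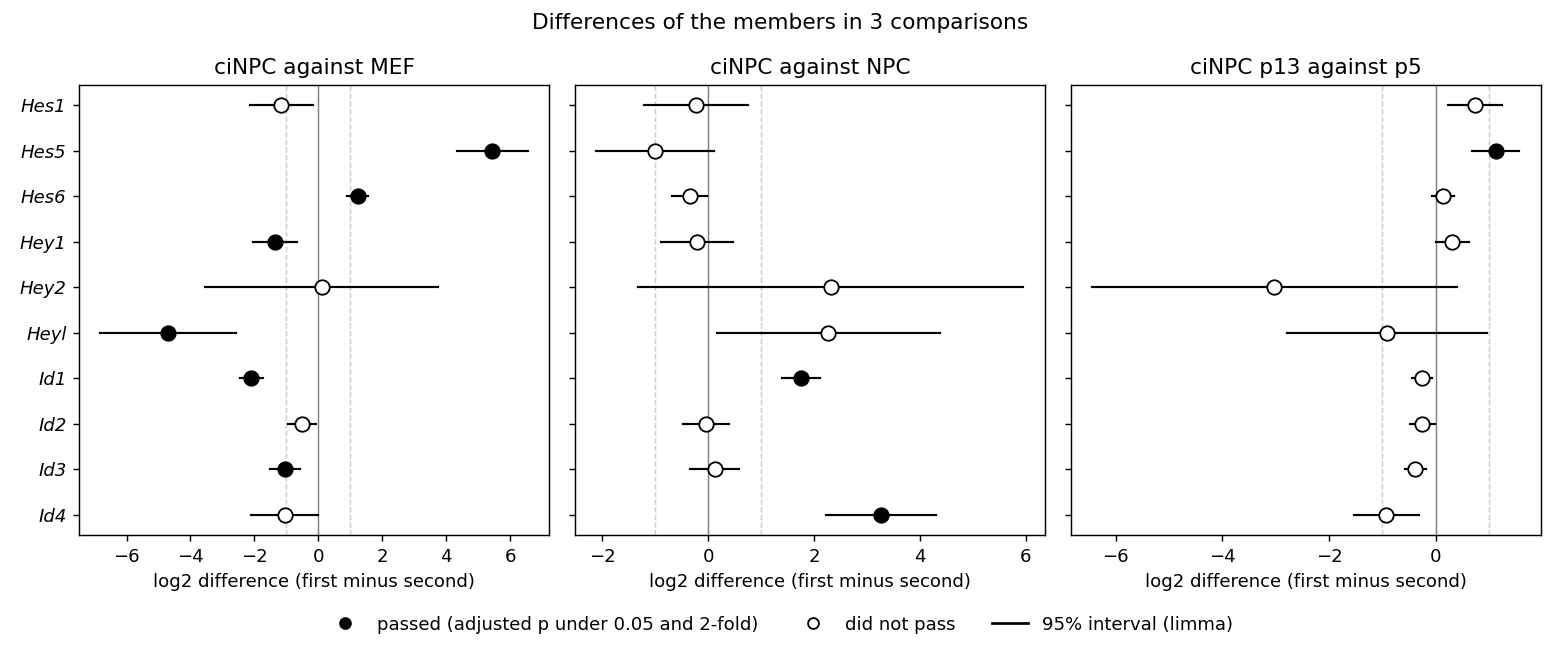
Log2 difference of each member in 3 comparisons (ciNPC minus MEF, ciNPC minus NPC, p13 minus p5), with 95% intervals from limma; filled points passed the threshold and dashed lines mark 2-fold. Hes5 and Hes6 lie to the right in the first panel, Id1 and Id4 in the second and Hes5 in the third; the intervals of Hey2 and Heyl, dim on most arrays, are wide.

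Hes5, the Notch-driven repressor most typical of dividing neural progenitors, had levels of 1.00 and 0.84 on the p13 arrays, -0.21 on the p5 array, 1.54 in NPC and -4.89 in MEF. In raw intensity these were 879 and 774 at p13, 533 at p5, 1790 in NPC and 19.4 in MEF. Every ciNPC array was far above MEF and all were below NPC, with p5 the lowest. The difference from MEF was 5.43 (SE 0.47, adjusted p 0.000285, 3 ciNPC arrays against 1). That from NPC was -1.001 (SE 0.47, adjusted p 0.420), with a 95% interval of -2.11 to 0.11. For NPC over MEF the Hes5 ratio was at least 71.5-fold, without a test. These sizes depend on how background is handled. Normexp background correction was run with an offset of 50 added to every intensity, which by itself shrinks the folds of dim probes. With it, the log2 difference of Hes5 was 3.29 for ciNPC against MEF (limma, adjusted p 6.96e-05) and 4.29 for NPC against MEF. Both are smaller folds than the bounds given here.

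By passage, p5 has 1 array, so a change with passage cannot be told apart from a difference of that array. Hes5 was the only member that passed there. It was higher at p13 than at p5 by 1.12 (SE 0.22, adjusted p 0.00104, 2 arrays against 1), with both p13 arrays above p5 and only 0.16 apart. The call was lost under quantile normalisation (1.15, adjusted p 0.133), in the deposited value table (1.14, adjusted p 0.139) and without the intensity trend (adjusted p 0.679), settings in which 3, 3 and 0 of all probes passed.

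Hes6 had levels of 3.21 and 3.05 at p13, 2.99 at p5, 3.43 in NPC and 1.85 in MEF. The ciNPC arrays lay within 0.23 of one another, all above MEF and slightly below NPC. Hes6 was 2.34-fold higher in ciNPC than in MEF (difference 1.23, SE 0.14, adjusted p 0.000911). It differed from NPC by -0.35 (SE 0.14, adjusted p 0.360), with an interval of -0.69 to -0.01. In NPC against MEF it differed by 1.58, under the 4-fold used for that pair.

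Hes1, which responds to Notch in many tissues besides brain, had levels of -0.77 and -0.07 at p13, -1.15 at p5, -0.44 in NPC and 0.50 in MEF. All ciNPC arrays were below MEF and they spread on both sides of NPC. The difference from MEF was -1.16 (SE 0.41, adjusted p 0.070) and did not pass, but it passed in 4 settings of filter, floor or background correction (adjusted p 0.0314 to 0.0426). It was -1.11 without p13-1, -1.46 without p13-2 and -0.92 without p5. Against NPC it was -0.23 (SE 0.41, adjusted p 0.843), or 0.019 without p5.

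The 3 Hey genes are Notch targets best known from blood vessels, heart and smooth muscle. Hey1, which is also used by neural progenitors, had levels of 2.58 and 1.86 at p13, 1.91 at p5, 2.33 in NPC and 3.47 in MEF. All ciNPC arrays were below MEF, and NPC lay within their range. Hey1 was lower in ciNPC than in MEF, at -1.36 (SE 0.28, adjusted p 0.0103), a call lost in the deposited value table (adjusted p 0.0558) and without the intensity trend (adjusted p 0.0981). Against NPC the difference was -0.21 (SE 0.28, adjusted p 0.781; interval -0.89 to 0.46).

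Heyl had levels of -3.21 and -5.01 at p13, -3.20 at p5, -6.08 in NPC and 0.90 in MEF. Only the MEF and p5 arrays were well above background, so its ciNPC level rests on 1 of 3 arrays, and the MEF value stood alone at the top. The difference of ciNPC from MEF was -4.70 (SE 0.88, adjusted p 0.00673; 0.0532 to 0.0555 under quantile normalisation, the value table or no trend, where it did not pass), and in NPC Heyl was at least 40.3-fold lower than in MEF. With normexp background correction the difference from MEF was -3.10 for ciNPC and -3.75 for NPC. Against NPC, where it was below background, Heyl did not pass (at least 1.55-fold higher, adjusted p 0.341). Without p13-2, which leaves 1 of 2 ciNPC arrays above background, the difference from NPC was 2.87.

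Hey2 was well above background on the p5 array alone, at -2.30, against -5.53 and -5.11 at p13, -6.63 in NPC and -4.42 in MEF. No difference of Hey2 passed, and its difference from MEF, 0.11 with SE 1.52, turned to -0.90 without p5. Hey2 passed the filter on dim probes only through that p5 array, so its higher level there is partly a product of the filter. At p13 it was at least 2.20-fold lower than at p5 (limma, adjusted p 0.343), and no result is drawn from this.

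By their values, Id1 and Id4 lay between NPC and MEF, while Id3 and Id2 were close to NPC. Id2 differed little from MEF either. Id1, a direct target of BMP signalling, had levels of 3.04 and 3.02 at p13, 3.28 at p5, 1.36 in NPC and 5.21 in MEF. The ciNPC arrays lay within 0.26 of one another, and NPC and MEF lay well outside them on opposite sides. Id1 was 4.29-fold lower in ciNPC than in MEF (-2.10, SE 0.15, adjusted p 0.000145) and 3.36-fold higher than in NPC (1.75, SE 0.15, adjusted p 0.00121). In NPC, Id1 was 14.4-fold lower than in MEF. The call against NPC was lost without the intensity trend (adjusted p 0.106).

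Id4, which in mouse brain times the expansion and differentiation of neural progenitors, had levels of -1.06 and -0.77 at p13, 0.01 at p5, -3.87 in NPC and 0.44 in MEF. Every ciNPC array was above NPC and below MEF, p5 being the nearest to MEF. Id4 was 9.61-fold higher in ciNPC than in NPC (3.26, SE 0.44, adjusted p 0.00959). Against MEF the difference was -1.05 (SE 0.44, adjusted p 0.113) and did not pass. It was -1.36 without p5, -0.82 without p13-1 and -0.97 without p13-2. The NPC level of Id4 was close to the lowest well-above-background value of that array, -4.44. With normexp background correction the difference from NPC was smaller, 2.12 (adjusted p 0.00317), and that of NPC from MEF was -3.03. The call against NPC was lost under quantile normalisation (2.85, adjusted p 0.111), in the deposited value table (2.90, adjusted p 0.110) and without the intensity trend (adjusted p 0.170).

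Id3 and Id2 were close to NPC. Id3, whose probe spans 175 bases of the genome and thus crosses an intron, had levels of 4.03 and 3.80 at p13, 4.29 at p5, 3.91 in NPC and 5.09 in MEF. NPC lay within the ciNPC range and MEF above it. Id3 was lower than in MEF, at -1.04 (SE 0.19, adjusted p 0.00618), just past 2-fold, and missed that limit without p13-2 (-0.93) and in 3 of the other scalings or sources (-0.80, -0.89 and -0.78); without the trend its adjusted p was 0.0844. Against NPC it differed by 0.13 (SE 0.19; interval -0.33 to 0.59).

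Id2 had levels of 2.20 and 2.52 at p13, 2.61 at p5, 2.48 in NPC and 2.94 in MEF, the smallest span of the 10 members at 0.75. It differed from MEF by -0.50 (SE 0.18, adjusted p 0.0796) and from NPC by -0.04 (SE 0.18, interval -0.48 to 0.40), and neither passed. With passage, all 4 Id genes had lower values at p13, by -0.26 for Id1, -0.25 for Id2, -0.38 for Id3 and -0.92 for Id4, and none passed; Id3 had an adjusted p of 0.0167 but was under 2-fold.

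**Figure D3:**
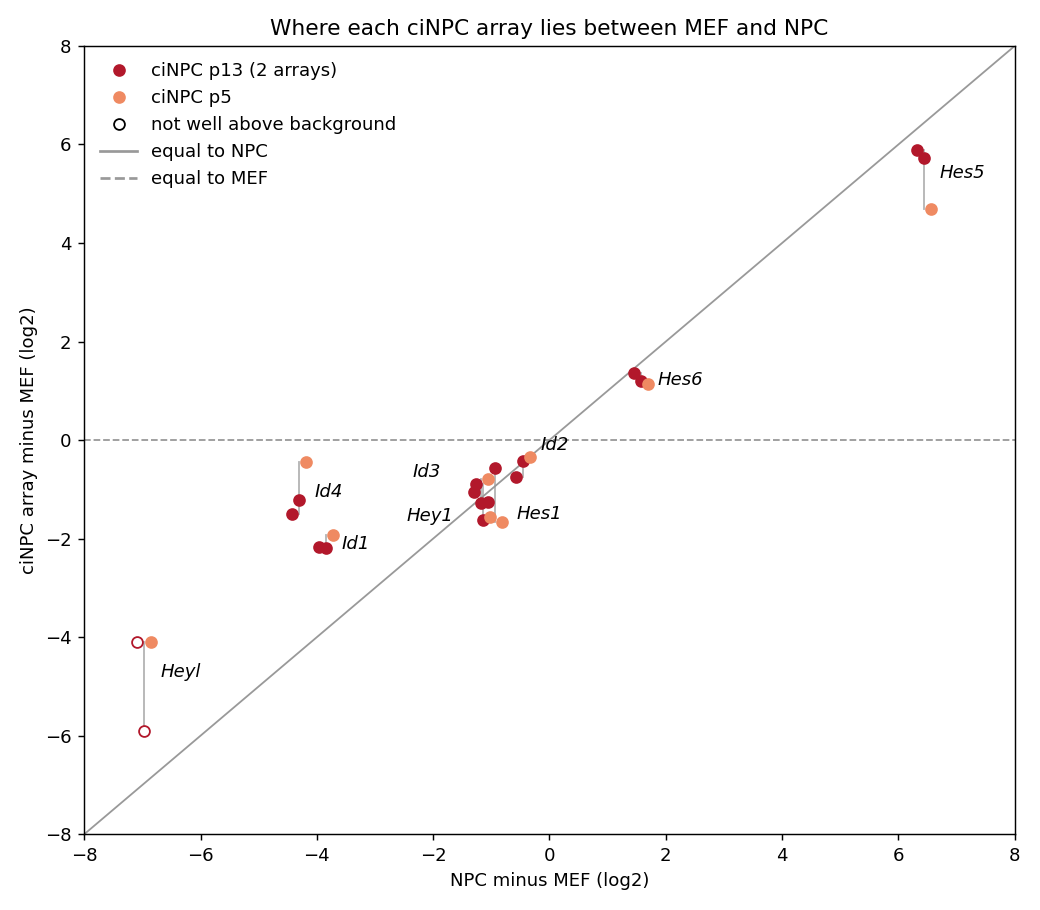
Each ciNPC array minus MEF (vertical) against NPC minus MEF (horizontal), in log2 units, for 9 members; Hey2 is left out because it was below background in both NPC and MEF. Points on the solid line equal NPC and points on the dashed line equal MEF; points of a gene are shifted slightly sideways to separate arrays. Hes6, Hey1, Hes1, Id2 and Id3 lie near the solid line, while Id1 and Id4 lie between the lines; MEF was below background for Hes5 and NPC for Heyl.

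In NPC against MEF, with 1 array each and no test, 1 member was at least 4-fold higher, Hes5, where 7.21% of all probes were, and 3 were at least 4-fold lower, Heyl, Id1 and Id4, where 7.52% were. As a share of the NPC level, ciNPC held 49.95% for Hes5, 78.5% for Hes6, 85.4% for Hes1, 86.3% for Hey1, 97.3% for Id2 and 109% for Id3. Such a share is not a position between NPC and MEF. For Hes1, Hey1 and Id2 the ciNPC mean was below both. For Id1 and Id4, ciNPC held 336% and 961% of the NPC level, and 23.3% and 48.3% of the MEF level.

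The mean level of fibroblast markers had the order of Id1 over the 5 arrays, and that of Id4 apart from the order of the p13 arrays. Over 14 fibroblast markers, dim values raised to the lowest well-above-background value, it was 2.15 and 2.11 at p13, 2.63 at p5, -2.82 in NPC and 5.25 in MEF. All 14 were above background on each ciNPC array, and in NPC 8 were, Col1a1, Postn, Pdgfrb, Twist1, Twist2 and Lum being below. For 9 smooth muscle and pericyte markers the means were 0.86 and 0.87 at p13, 0.95 at p5, -3.99 in NPC and 3.02 in MEF, with the pericyte genes Rgs5, Kcnj8 and Abcc9 below background on all ciNPC arrays. Of 4 skeletal muscle markers measured, 3 were higher in ciNPC than in NPC, Myog, Acta1 and Actc1, where 2.74% of all probes were. The means over the 4 were -0.21 and -0.31 at p13, 0.35 at p5, -2.92 in NPC and -1.17 in MEF. Of 6 macrophage markers measured, 2 were higher in ciNPC than in NPC, Tyrobp and Adgre1, against the same 2.74% of all probes. Itgam (-0.26) and Csf1r (-0.16) were among those that did not pass against NPC. Both were lower in ciNPC than in MEF (-2.35 and -1.04). The means over the 6 were -1.29 and -0.78 at p13, -1.34 at p5, -2.19 in NPC and -0.81 in MEF. The part of such cells in the levels of Id1, Id4 and Heyl was not tested, and in bulk RNA fewer cells of a type and less RNA per cell cannot be told apart. Over 14 neural progenitor markers the means were 3.03 and 2.92 at p13, 2.76 at p5, 3.35 in NPC and -1.64 in MEF, the order that Hes5 and Hes6 also had. Of 8 neuron markers measured, 5 were higher and 2 lower in ciNPC than in MEF, where 12.5% and 11.3% of all probes were. The means over the 8 were 0.75 and 0.53 at p13, 0.48 at p5, 0.30 in NPC and -1.61 in MEF. Of 7 astrocyte markers, 4 were higher and 0 lower in ciNPC than in MEF. Their means were 1.13 and 0.93 at p13, 0.82 at p5, 1.19 in NPC and -0.98 in MEF, again the order of Hes5 and Hes6. The part of neurons or astrocytes in the level of Hes5 was not tested. Of 5 endothelial markers measured, 3 were above background on each p13 array, 2 at p5, 3 in NPC and 5 in MEF.

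Upstream of the Hes and Hey genes, Notch pathway genes differed from MEF in both directions. Of 26 genes of that list tested, 6 were higher and 4 lower in ciNPC, with a median of 0.10, where 12.5% of all probes were higher and 11.3% lower. The ligand gene Dll1 was at least 15.03-fold higher (adjusted p 0.000130), and Lfng, which encodes a sugar transferase that tunes Notch receptors, was higher by 3.79. Psen2, a subunit of the protease that cleaves Notch, differed by -1.92 (SE 0.19, limma adjusted p 0.000535). Maml3, a coactivator, differed by -1.80 and only just passed (SE 0.57, limma adjusted p 0.0499). Against NPC, 2 were higher and none lower by limma, where 2.74% and 0.0505% of all probes were. These were Dlk1, a non-canonical ligand, at 7.73 and Numbl, a Notch antagonist, at 1.24.

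Among 27 BMP pathway genes tested, upstream of the Id genes, 9 were lower and 2 higher in ciNPC than in MEF (median -0.64), while 6 were higher and none lower than in NPC by limma (median 0.23). Over all probes 11.3% were lower and 12.5% higher than in MEF, and 2.74% were higher and 0.0505% lower than in NPC. Bmp4, a ligand, had levels of 1.86 and 1.81 at p13, 2.46 at p5, -5.13 in NPC, where it was below background, and 4.51 in MEF. It was at least 89.4-fold higher in ciNPC than in NPC (adjusted p 3.20e-05). The secreted BMP antagonist Grem1 differed by -3.92 from MEF and by 3.71 from NPC, passing in both.

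The ligand Bmp7 was higher than in MEF by 7.54, with levels of 3.65 and 3.34 at p13, 3.44 at p5, 3.81 in NPC and -4.06 in MEF. Acvr2b, a type II receptor, was higher than in MEF by 2.51 and the receptor Acvrl1 differed by -3.78. The inhibitory Smads Smad6 and Smad7, feedback targets of BMP and TGF-beta signalling and named here after their values were seen, differed from MEF by -1.86 and -2.81 and passed. Both were below background in NPC, and ciNPC were at least 12.6-fold and 22.3-fold higher. For Bmp4, Grem1, Smad6 and Smad7 the ciNPC arrays thus lay between NPC and MEF, as did the mean of the 14 fibroblast markers. Not every gene of the list had this position. Bmpr2, a receptor, had levels of 1.41 and 1.32 at p13, 1.33 at p5, 1.69 in NPC and 2.29 in MEF. A link of these genes to the Id levels was not tested. These comparisons share arrays.

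**Figure D4:**
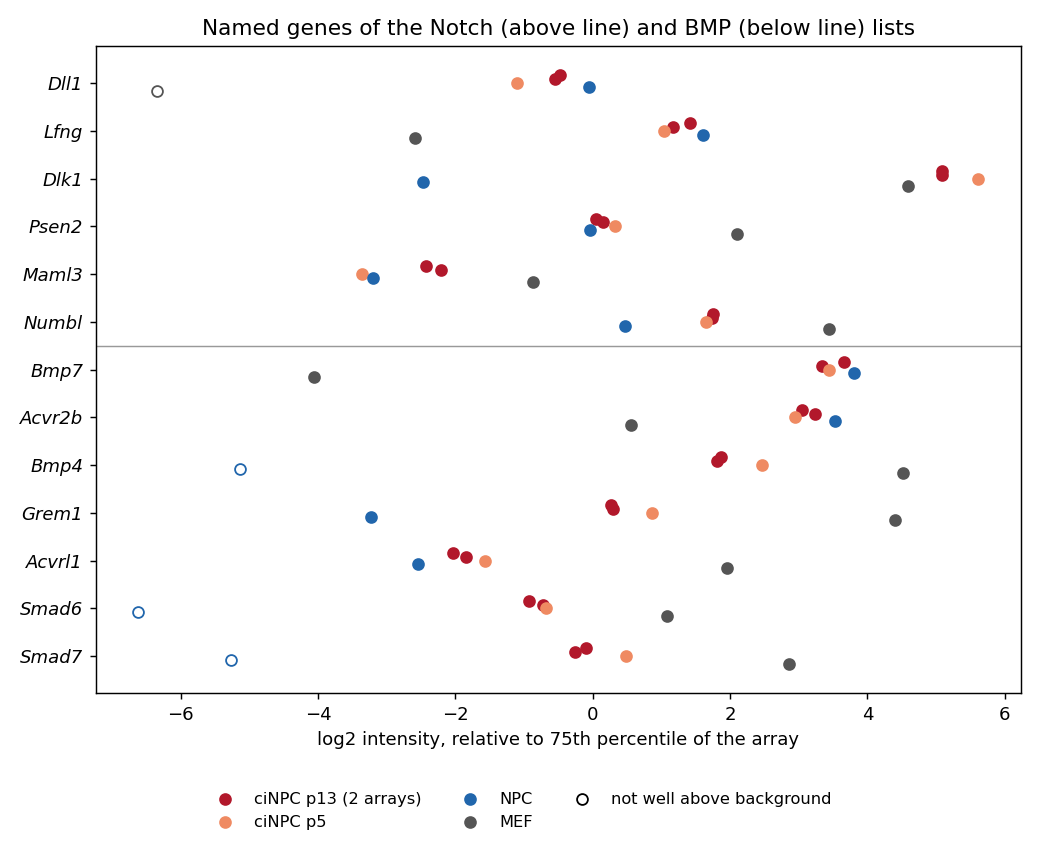
Level of the named Notch (above the line) and BMP (below the line) genes on each array, as log2 intensity relative to the 75th percentile of the array; open points are not well above background. Dll1, Lfng, Bmp7 and Acvr2b have ciNPC beside NPC, and Bmp4, Grem1, Smad6 and Smad7 have ciNPC between NPC and MEF.

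Among the proteins that Hes, Hey and Id repressors act on or with, 13 of 22 helix-loop-helix activators and partners were tested, and 5 were higher and 1 lower than in MEF, where 12.5% and 11.3% of all probes were. Olig1 and Olig2, factors of the oligodendrocyte lineage and its progenitors, were at least 1572-fold and 222-fold higher. Twist1, a mesenchymal factor, differed from MEF by -2.16 and was at least 12.5-fold higher than in NPC, and Twist2 was at least 74.9-fold higher than in NPC. In all, 3 were higher and none lower against NPC by limma, where 2.74% and 0.0505% of all probes were; the third was the muscle factor Myog, at least 6.84-fold higher than in NPC (adjusted p 0.0175) and below background in both NPC and MEF. Of 11 corepressors, Tle4 was at least 14.2-fold higher than in MEF, Tle3 differed by -1.11, and none passed against NPC.

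Among 14948 other genes, those with the most similar course over the 5 arrays were found by the root mean square difference between profiles centred on their own mean once dim values had been raised to their array's floor, its lowest signal well above background. Where both genes were at that floor on an array, as Hes5 and Rbfox3 were in MEF, their values there are equal by construction. Nearest to Hes5 were the neuronal splicing factor gene Rbfox3 and Agap2 (0.19 and 0.22 log2 units). Near to Hes6 was Golm1 (0.02), and nearest to Hes1 were Mettl27 and Ube2d-ps (0.05 and 0.08). For Hey1 these were Icam5 and Zbtb20 (0.08 and 0.10), and for Heyl Pla1a and Sod3 (0.03 and 0.09). For Id1 they were Timp2, an inhibitor of matrix proteases, and Nrp1, a receptor for semaphorins and VEGF (0.03 and 0.05). For Id3 they were Smim20 and Sh3gl1 (0.05 each), and for Id4 Gngt2 and Pla2g4a (0.12 and 0.14). Hey2, above background on 1 array and at or near the floor on the others, was nearest to Prss45 and Vmn1r210 (0.08 each). Id2 spanned under 2-fold and was not matched.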

How the data were processed

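RNA from 5 mouse samples had been labelled with Cy3 and hybridised to 1 array each. Per the submitters' processing notes, spots were extracted with Agilent Feature Extraction 10.7.1.1, with probes placed on mm9 per the file headers. Per the file headers, each spot's processed intensity had its background subtracted and was detrended, array by array, with no step across arrays. A second deposited file, the value table, has log2 values whose 5 columns share 1 distribution (median 5.64); they were used as an alternative, and how the authors made them is not given in the sources used here.

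Processed intensities were taken as log2, scaled to the 75th percentile of each array and averaged over the spots of a probe, leaving out outlier spots. A probe was kept if all arrays of some group (of 4) had it well above background, which left 35616, and 35611 of these, with a value on every array, were tested. Of 55681 probes, 29184 were given a RefSeq symbol (GRCm38.p6, names only), 26582 of them by accession. limma 3.58.1 in R 4.3.3 was fitted with an intensity trend, 1 fit with ciNPC as 1 cell type (2 residual degrees of freedom) and another with 4 groups for passage (1). NPC and MEF, with 1 array each, were taken to vary as ciNPC did. NPC against MEF was described at 4-fold, without a test. Where a group was below background, a fold is a lower bound: the bright group's mean against the higher of the dim value and the lowest well-above-background value of its array. The fit was tested on simulated data.

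All members are named. From the pathway lists, the rule took the 2 largest differences each way that passed against MEF and against NPC; the 2 genes nearest in pattern came from leading probes spanning at least 2-fold. Members and lists were chosen with earlier results of these data known. A few genes that the rule names are not reported here. Alternatives covered scaling, background correction (normexp with an offset of 50), filters, row per gene, floor, trend, the value table and leaving out each ciNPC array. Leaving out an array leaves fewer arrays to estimate the spread from, so a smaller adjusted p in such a fit is not stronger evidence. The number of arrays limits the precision.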

Additional observations from a re-analysis of the deposited data

How the results depend on the processing

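The members' directions held in most settings. Of 117 member values against MEF, 97 kept their direction and side of the threshold, and all but 10 of 117 against NPC did. Id1, Hes5 and Hes6 passed against MEF in every setting in which they were tested. Hey2 against MEF turned to -0.41 under quantile normalisation, -0.42 in the value table, and ran from -0.90 to 0.72 with 1 array left out. Id2 against NPC turned to 0.037, 0.079 and 0.086 (quantile, value table, detected-probe percentile) and ran from -0.12 to 0.082 with 1 array left out, and Hes1 from -0.53 to 0.019. Heyl by passage turned to 0.066 under normexp, and Hey1 by passage to -0.048 without p13-1. These reversals are of values that did not pass, and the cause was not tested. Members lower than MEF numbered 2, 1 and 1 under quantile normalisation, the value table and no trend, and members higher 1 over probes detected on all arrays, where Hes5 was not tested. Members higher than NPC numbered 1, 1 and 0 under quantile normalisation, the value table and no trend, and members higher at p13 were 0 in those settings and over probes detected on all arrays. All probes passing against MEF were 8473 (4926 with 1 row per gene, where 16123 were tested; 7534 to 11058 with 1 array left out), with 52.4% higher and 61.9% higher in the detected-probe percentile. Against NPC they were 994, and 582 under quantile normalisation, 575 in the value table, 589 over probes detected on all arrays, 338 without trend, and 1267 to 1898 with 1 array left out, the most without p13-2. For passage they were 313, and 3, 3, 122, 93, 599 and 0 under quantile normalisation, the value table, detected probes, 1 row per gene, values at the floor and no trend. NPC against MEF gave 5246, and 2968 under normexp. The median of all probes against MEF was -0.10, and 0.06 in the detected-probe percentile. Slide as a block could not be fitted, since it is the same split as ciNPC against the rest. No paired analysis was possible because MEF, NPC and p5 have 1 array each. Hey2 and Heyl were limited by signal over background.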

Other observations

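Relatives of the Hes genes outside the 10 members were measured too, and 4 of 6 passed the filter on dim probes. Bhlhe40, a repressor of clock and stress genes, had levels of 0.49 and 0.58 at p13, 0.76 at p5, 0.94 in NPC and 3.38 in MEF. It was lower in ciNPC than in MEF, at -2.77 (SE 0.17, adjusted p 8.57e-05, limma) and did not pass against NPC (-0.34, adjusted p 0.463). Its relative Bhlhe41 had -3.37 and -2.01 at p13, -3.43 at p5, -5.91 in NPC and -1.15 in MEF, and was well above background on the p13-2 and MEF arrays alone. Hes7, a gene of the segmentation clock in the mouse embryo, had levels of -0.31 and -0.22 at p13, -0.55 at p5, -0.13 in NPC and -0.11 in MEF. Hes2 was below background on p13-2 alone, and neither Hes2 nor Hes7 passed in any of the 3 comparisons tested.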
